A study of Mus musculus with 9 samples.

Results

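The keratin genes of the mouse enamel organ were examined as a family. The members were the protein-coding genes whose symbol is Krt, a number and at most 1 letter, which gave 53 of the 54532 genes of the count table. RNA came from first-molar enamel organs of 9 male pups at postnatal day 12, with 1 library per mouse. For the 5 ELA (early life adversity) pups, cages held limited bedding and nesting material between postnatal days 2 and 12, and the 4 control pups were raised without this limitation. Pups of both groups came from Crh-IRES-Cre +/+ dams paired with Ai14 tdTomato males on a C57Bl6 background, so the controls carried the same alleles. The ELA mice were t-205-1-1, t-205-1-3, t-203-1-3, t-203-1-4 and t-203-1-5, and the control mice were c-204-1-1, c-204-1-2, c-202-1-1 and c-202-1-2. Values of single mice are listed in that order. The labels do not say what the openings of these titles (t-203, t-205, c-202 and c-204) stand for. Each opening occurs in 1 group only, so a difference between them and a difference between groups cannot be told apart.

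Keratins are the intermediate filament proteins of epithelial cells. A filament needs a type I (acidic) and a type II (basic) keratin, and each epithelium uses particular pairs: Krt8 with Krt18 in simple epithelia, Krt5 with Krt14 in the basal layer of stratified epithelia, Krt4 with Krt13 in the upper layers of the oral lining, and Krt1 with Krt10 in the upper layers of the epidermis. Hair follicles add a large set for the inner root sheath and the hard shaft. The enamel organ is an epithelium that derives from the oral ectoderm, and its ameloblasts secrete the enamel matrix.

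The libraries held 18056774 to 32110160 counts in ELA mice and 18683431 to 20831736 counts in control mice, with t-203-1-5 the deepest. All 7 ameloblast markers (Amelx, Ambn, Enam, Odam, Amtn, Klk4 and Mmp20) were detected in each library, and their summed level was 104741 to 167739 CPM (counts scaled to a common library size) in ELA and 78779 to 104321 CPM in control mice. Neuronal markers summed to 395 CPM in t-203-1-4, which held 507 genes at 5 or more times the level of any other library (3.05% of those with 10 or more counts there), 0 of them keratins. In bulk tissue, fewer cells of a type and less RNA per cell cannot be told apart, and p-values measure the spread between these mice only.

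Krt8 was the only keratin that passed the test between the groups. Of the 53 keratins, 50 had at least 1 count, and Krt2, Krt40 and Krt88 had 0 counts in the 9 libraries, which allows up to 0.0157 CPM over the 191385744 counts in all. The test needed counts of about 10 in several libraries and was run on 27 keratins, of which 13 had a positive and 14 a negative log2 fold change of ELA over control, with a median of -0.07. Over all 15909 genes tested, 52.6% were positive and the median was 0.01. With edgeR's quasi-likelihood test at an adjusted p below 0.05, 1 keratin (Krt8) was higher in ELA, where the background was 0.0377% of all genes, and 0 were lower, where it was 0.0251%. At an unadjusted p below 0.05, 6 were higher (Krt8, Krt15, Krt17, Krt71, Krt73 and Krt222) against a background of 3.56%, and 3 were lower (Krt10, Krt75 and Krt84) against 2.89%. DESeq2 called 1 higher (background 0.502%) and 0 lower (0.388%), and limma-voom called 1 higher (0.0377%) and 0 lower (0.0189%). DESeq2 gave no adjusted p for 3 of the 27 (Krt23, Krt4 and Krt13). All 5 ELA mice lay above all 4 control mice for 1 keratin, Krt8 (background 1.39%), and below them for 0 keratins (background 1.29%). The other 26 keratins, most of them hair keratins, were too low for the test.

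**Figure D1:**
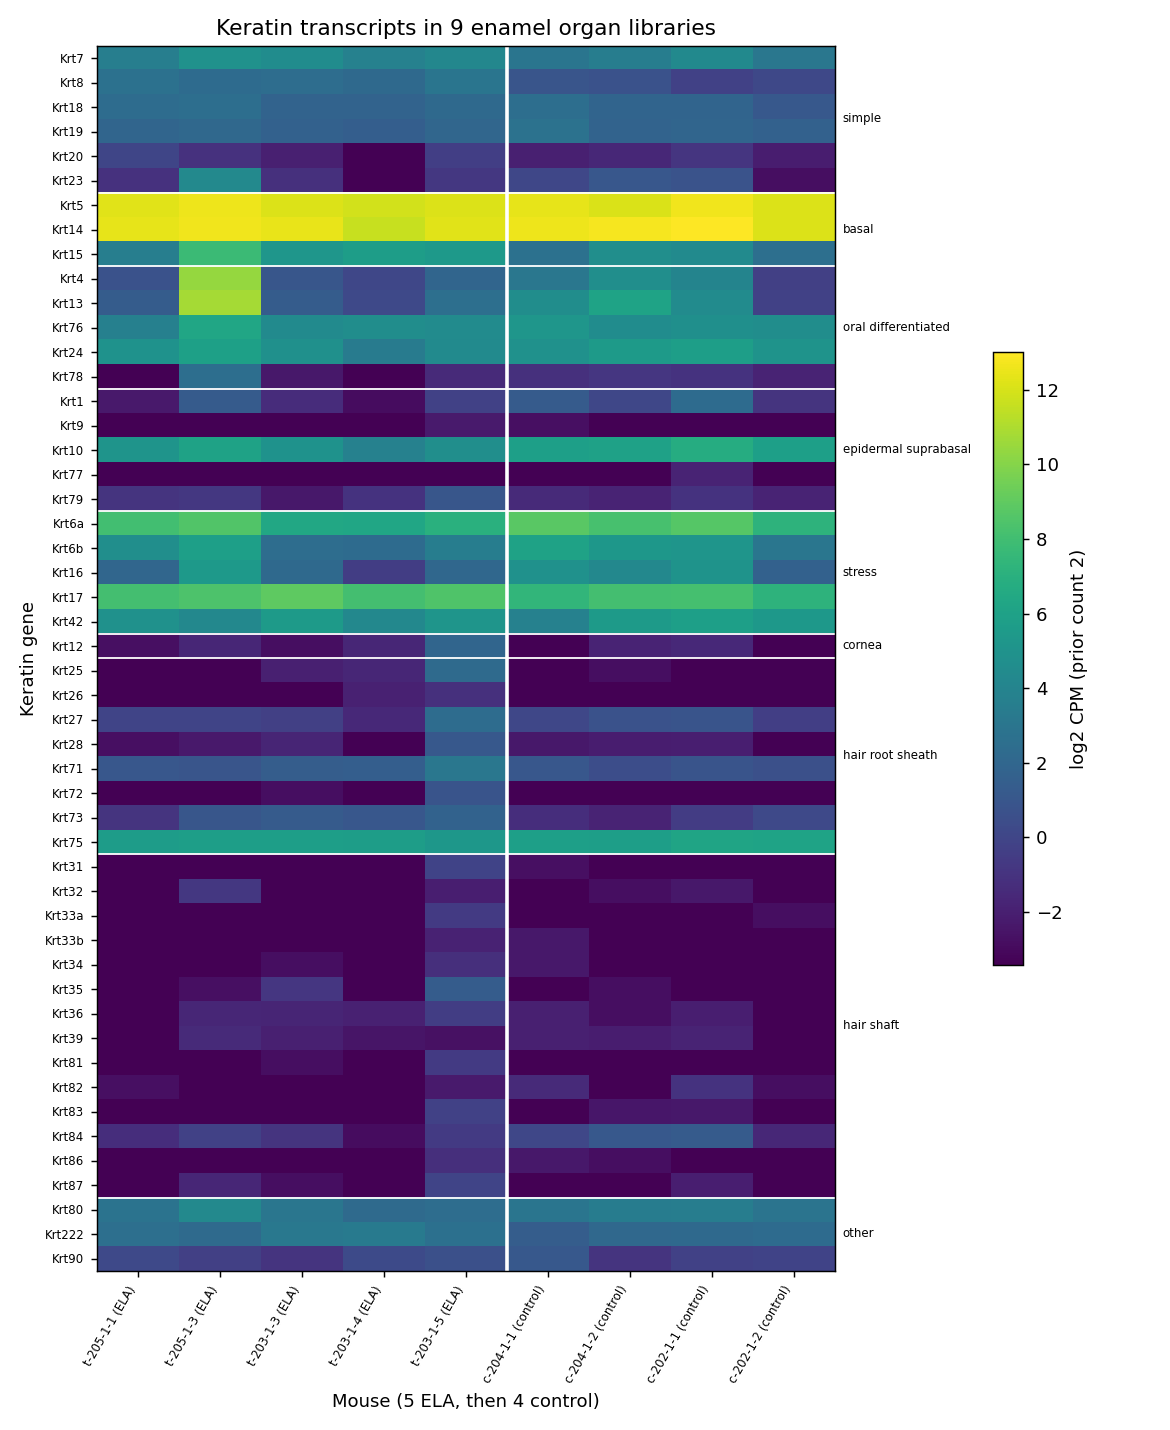
Level of each keratin with a count, by mouse, as log2 CPM with a prior count of 2. Columns are the 5 ELA and then the 4 control mice, and rows are ordered by keratin group. Krt5 and Krt14 are high in each mouse, Krt4 and Krt13 stand out in t-205-1-3 (1383 and 1751 CPM), and most hair keratins are highest in t-203-1-5.

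In total, keratins took 0.789% to 1.73% of all counts in ELA libraries and 1.07% to 1.55% in control libraries. The basal group (Krt5, Krt14 and Krt15) made up 75.0% to 93.2% of keratin transcripts in ELA and 92.2% to 94.5% in control when levels were set per kilobase of gene (FPKM, the CPM divided by gene length). The value of 75.0% belonged to t-205-1-3, and the other 4 ELA mice had 92.1% or more. Averaged over the 9 mice, Krt14 was at 3257 FPKM and Krt5 at 2246 FPKM, followed at a distance by Krt17 at 187 FPKM. Krt13, Krt6a and Krt4 came next, but the places of Krt13 and Krt4 rested on t-205-1-3. Krt18 (2.88 FPKM) and Krt8 (1.93 FPKM) held ranks 15 and 18, and the ranges of both over the mice overlapped. The ratio of summed type II to summed type I FPKM was 0.703, 0.721, 0.594, 0.868 and 0.685 in ELA mice, against 0.733, 0.510, 0.620 and 0.776 in control mice. The groups overlapped in this balance between the types.

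**Figure D2:**
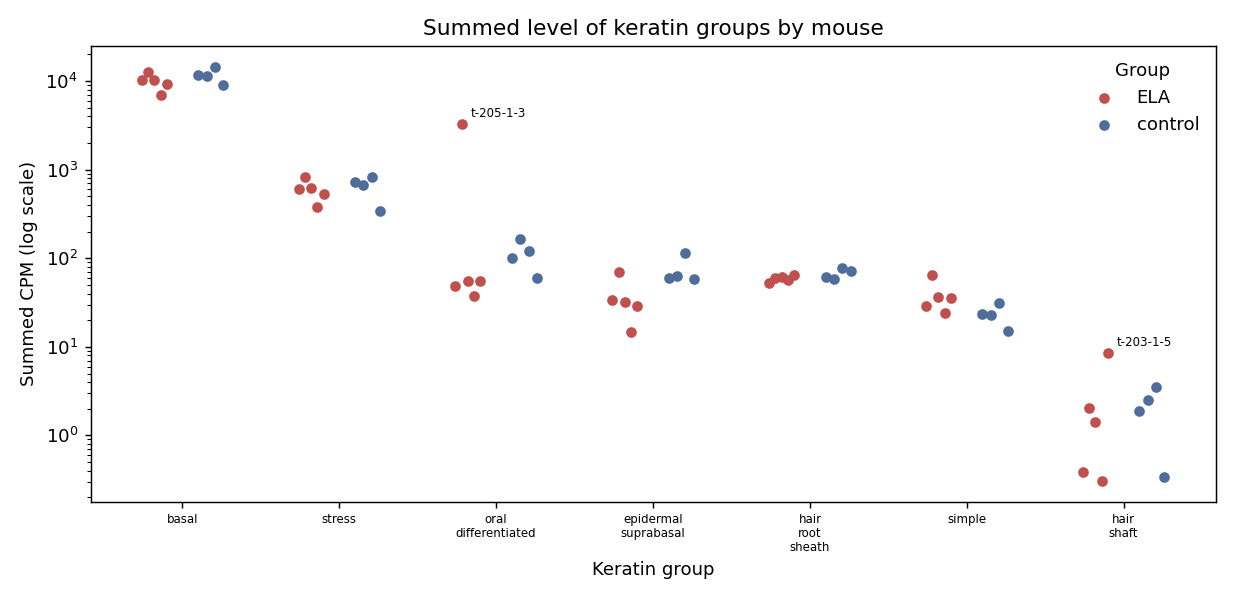
Summed level of each keratin group by mouse in CPM on a log axis, with 1 point per mouse, ELA left of control. The basal sum is 7055 CPM or more in each mouse, and the oral differentiated sum is 3277 CPM in t-205-1-3 against 163 CPM or less in the other 8 mice. The hair root sheath sum is mostly Krt75 in each mouse.

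Simple epithelial keratins held the called gene. Krt8 (ENSMUSG00000049382), the type II keratin of simple epithelia, lies on the minus strand at chr15:101996698-102004482. Krt18, its type I partner, is a near neighbour at chr15:102028180-102032027 on the plus strand and is the only type I keratin outside chromosome 11. The other 27 type I genes lie in chr11:99232761-100269871, and the 25 type II genes in chr15:101347444-102004482. The coordinates are those of the count table, and all 53 keratins have the same ones in GENCODE M21 (GRCm38).

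Because the paired genes differed in their result, the windows around their RefSeq starts are shown (GRCm38.p6, 250 bases before to 50 after the start, each 300 bases long, 5′ to 3′ on the strand of the gene). The Krt8 window is chr15:102004293-102004592 on the minus strand and the Krt18 window is chr15:102027966-102028265 on the plus strand. Capitals mark matches, on either strand, to TATAAA (the TATA box), GGGCGG (the GC box) or GCCNNNGGC (the AP-2 motif).
Krt8: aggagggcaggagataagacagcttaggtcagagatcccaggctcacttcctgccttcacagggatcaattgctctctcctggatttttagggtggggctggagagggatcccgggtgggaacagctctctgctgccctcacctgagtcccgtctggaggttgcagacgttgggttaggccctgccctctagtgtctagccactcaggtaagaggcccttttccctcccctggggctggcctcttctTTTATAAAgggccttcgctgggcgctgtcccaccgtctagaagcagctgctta
Krt18: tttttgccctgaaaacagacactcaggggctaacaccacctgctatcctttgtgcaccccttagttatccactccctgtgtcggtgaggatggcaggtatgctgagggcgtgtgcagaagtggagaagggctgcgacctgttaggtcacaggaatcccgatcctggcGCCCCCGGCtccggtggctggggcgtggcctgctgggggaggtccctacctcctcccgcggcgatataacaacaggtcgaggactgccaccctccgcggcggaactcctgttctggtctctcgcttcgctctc

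The Krt8 window held 2 matches to TATAAA, which overlap on opposite strands, and none to the other motifs. The first begins at base 248, 3 bases before the RefSeq start, so the matches span that start and do not lie wholly upstream of it. The Krt18 window held 1 match to GCCNNNGGC at base 168 and none to the others. Windows were found for 36 of the 53 keratins, in 37 windows because a gene can have more than 1 start. TATAAA occurred in 19 of the 37 keratin windows and in 13.6% of all 32851 windows of the same length, GGGCGG in 2 of 37 and 35.7% of all, and GCCNNNGGC in 7 of 37 and 16.6% of all. A match describes these letters only.

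Krt8 had 117, 89, 105, 103 and 245 counts in ELA mice, against 34, 33, 15 and 21 counts in control mice. These correspond to 6.40, 4.87, 5.45, 4.50 and 7.57 CPM in ELA mice and 1.79, 1.59, 0.750 and 1.01 CPM in control mice. The lowest ELA mouse was above the highest control mouse by more than the SD of either group. The mean was 5.76 ± 1.24 CPM in ELA (SD, n = 5) and 1.29 ± 0.488 CPM in control mice (SD, n = 4), which gave a log2 fold change of 2.16 (SE 0.312, edgeR adjusted p = 0.0477). The same change was 2.17 in DESeq2 (adjusted p = 9.46e-09) and 2.23 in limma-voom (adjusted p = 0.0493). Leaving out any single mouse kept the fold change between 1.98 and 2.36, but the edgeR adjusted p was below 0.05 only without t-205-1-3 and was 0.0543 to 0.257 without any other mouse. Without both t-205-1-3 and t-203-1-5 the fold change was 2.08 with an adjusted p of 0.0654. The edgeR call was also lost with plain library totals (2.10, adjusted p = 0.0510), with counts summed by title opening (2.18, adjusted p = 0.188), and without the t-203 mice (2.13, adjusted p = 0.247), the c-204 mice (2.70, adjusted p = 0.692) or the c-202 mice (1.76, adjusted p = 0.411). Markers of the cell types in these samples gave the following values beside Krt8. Of the 7 ameloblast markers, 6 had a positive log2 fold change and 1 (Amelx, 1.56) passed the edgeR test. Enam had the largest change (5.30, edgeR adjusted p = 0.0570), at 389 to 4642 CPM in ELA mice and 48.8 to 72.3 CPM in control mice. Ambn (0.53) and Amtn (0.40) were positive, while Mmp20 (0.08), Klk4 (0.00083) and Odam (-0.24) were near 0 or below it. The lowest ELA sum of 104741 CPM was barely above the highest control sum of 104321 CPM. All 6 dental mesenchyme markers had a negative log2 fold change and 0 passed, with sums of 11803 to 23162 CPM in ELA mice and 15477 to 30743 CPM in control mice. All 3 B lymphocyte markers were negative and 1 (Ighm) passed as lower, with sums of 3.54 to 9.92 CPM in ELA mice and 18.5 to 36.8 CPM in control mice. Both blood markers were negative and neither passed, with sums of 135 to 322 CPM in ELA mice and 316 to 730.3 CPM in control mice. The part of these markers in the Krt8 result was not tested. Of the 4 salivary gland markers, Smr3a had 0 counts in each library. Aqp5 values of the ELA mice were 0.383, 1.64, 0.571, 0 and 1.24 CPM, with controls at 0.0959 to 0.241 CPM. All ELA mice except t-203-1-4 were thus above the controls. Bhlha15 overlapped between the groups (log2 fold change -0.36, edgeR adjusted p = 0.999). Prol1 reached 5.84 CPM in t-203-1-5 and 2.54 CPM in c-202-1-2, with 0.164 CPM or less elsewhere. The salivary sum ranged from 0.306 to 7.88 CPM among ELA mice and from 0.300 to 3.69 CPM among controls. It was highest in t-203-1-5, which also had the most Krt8, and its part in the Krt8 result was not tested. Of the 50-base stretches of Krt8 transcripts, 29.7% also occur in other genes, mostly in its pseudogene Krt8-ps, which had 5 counts over all libraries.

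Krt18, the partner of Krt8, did not pass the test. It was at 5.09, 5.75, 3.38, 3.37 and 4.51 CPM in ELA mice and 5.70, 3.66, 3.65 and 2.11 CPM in control mice. The groups overlapped, with a log2 fold change of 0.22 (SE 0.300, edgeR adjusted p = 0.999). The ratio of Krt8 to Krt18 per kilobase within a library does not depend on the scaling between libraries. It was 0.923, 0.622, 1.19, 0.982 and 1.23 in ELA mice, against 0.231, 0.319, 0.151 and 0.350 in control mice. Krt8 was thus near or above the level of Krt18 in 4 of the ELA mice, and in each control mouse it was at 0.350 or less of it. On the log2 scale the mean was -0.06 ± 0.39 in ELA and -2.002 ± 0.55 in control (SD), a difference of 1.95 (two-sided exact permutation test over mice, p = 0.00794, adjusted over the 2 ratios tested 0.0159). The unadjusted value is the smallest that the 126 splits of the mice can give. These splits, like the edgeR test, treat mice that share a title opening as independent, and the labels do not say whether they are. The paper's qPCR samples, with the same group sizes, came from 2 litters per group, and it gives no litters for the RNA-seq. If mice that share an opening are not independent, the p-values of both tests are too small. The ratio uses the same Krt8 counts as the edgeR test, so it is not independent of that test.

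**Figure D3:**
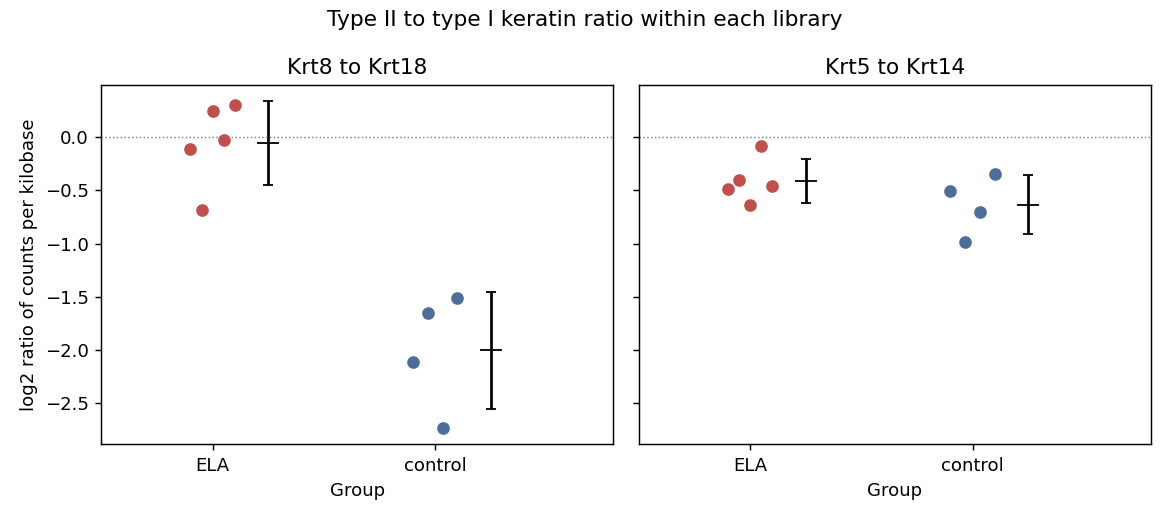
Log2 ratio of counts per kilobase of Krt8 to Krt18 (left) and of Krt5 to Krt14 (right), with 1 point per mouse, ELA left of control, and the mean and SD beside the points. The ELA and control mice do not overlap for Krt8 to Krt18 (means -0.06 and -2.002) and overlap for Krt5 to Krt14 (means -0.41 and -0.63).

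The other simple keratins did not pass the test. Krt7, a type II keratin of ducts and glands, was at 12.2, 30.0, 23.7, 13.8 and 18.4 CPM in ELA mice and 7.86, 11.8, 20.8 and 8.53 CPM in control mice, with a log2 fold change of 0.68 (SE 0.336, unadjusted p = 0.0681 in edgeR, which did not pass after adjustment). Its ELA values reached higher, but c-202-1-1 lay among them. Krt19, a type I keratin of ducts that needs no fixed partner, was at 3.72, 4.22, 3.12, 2.67 and 3.86 CPM in ELA mice and 6.75, 3.42, 3.75 and 3.16 CPM in control mice, and the groups overlapped. Krt23 was at 0.383, 19.6, 0.364, 0 and 0.494 CPM in ELA mice and 0.949, 1.97, 1.65 and 0.0479 CPM in control mice. Its fold change of 1.83 (SE 1.54) rested on t-205-1-3, without which it was -1.86. Krt20, known from gut epithelium, stayed at or below 0.930 CPM in each mouse. The summed simple group was 37.9 ± 15.8 CPM in ELA mice and 23.0 ± 6.56 CPM in control mice (SD, n = 5 and 4).

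The basal pair carried most of the keratin signal. Krt5 was at 4856, 6125, 4517, 3789.5 and 4411 CPM in ELA mice and 5502, 4356, 6326 and 4522 CPM in control mice. Krt14 was at 5461, 6459, 5607, 3213 and 4837 CPM in ELA mice and 6266, 6894, 8213 and 4587 CPM in control mice. Both overlapped between the groups, and t-203-1-4 was the lowest ELA mouse for each. Their log2 fold changes were -0.13 (SE 0.180, edgeR adjusted p = 0.999) and -0.34 (SE 0.223, edgeR adjusted p = 0.911). The log2 ratio of Krt5 to Krt14 per kilobase was -0.41 ± 0.20 in ELA and -0.63 ± 0.28 in control, a difference of 0.22 (exact permutation test, p = 0.222, adjusted over the 2 ratios 0.222). Krt15, a type I keratin of basal cells that has no type II partner of its own, varied widely among mice. It was at 12.3, 218, 36.4, 53.0 and 42.9 CPM in ELA mice and 6.59, 26.2, 21.3 and 5.80 CPM in control mice. ELA mice were higher except t-205-1-1, which lay among the controls. Its log2 fold change of 2.27 (SE 0.811) had an unadjusted p of 0.0187 and did not pass after adjustment (edgeR adjusted p = 0.628). Without t-205-1-3 it was 1.27.

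**Figure D4:**
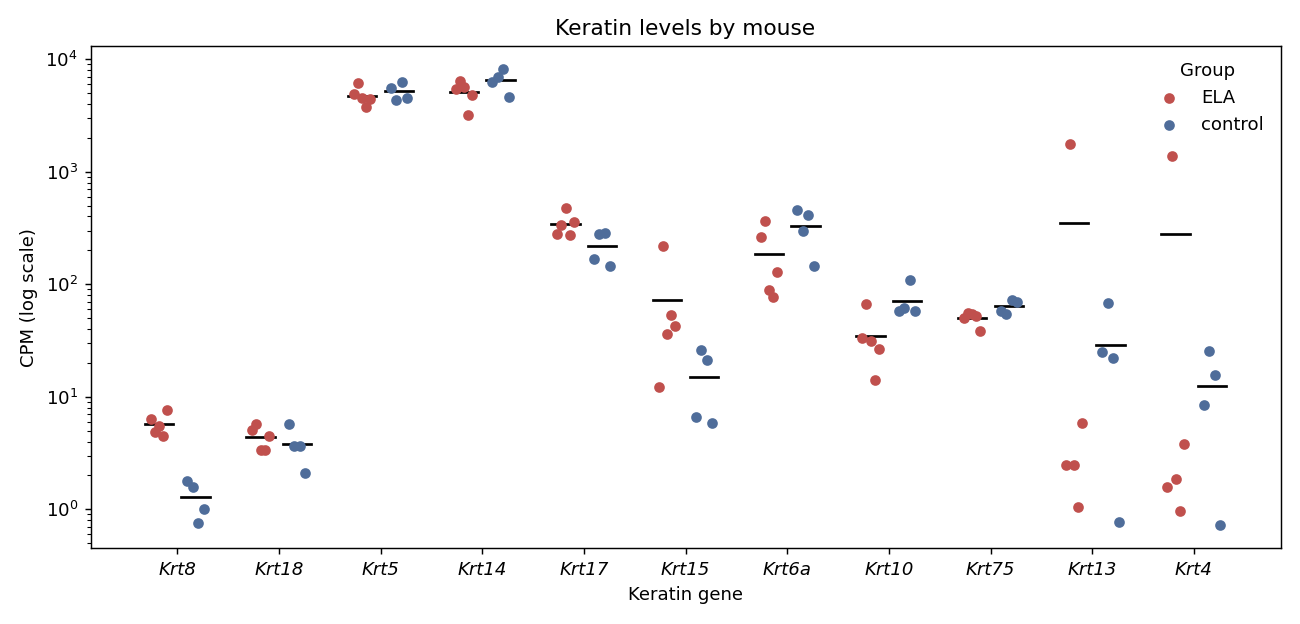
CPM of 11 keratins by mouse on a log axis, ELA left of control within each gene, with the group mean as a bar. Krt8 is the gene whose groups do not overlap (4.50 to 7.57 CPM in ELA, 0.750 to 1.79 CPM in control mice), and the ELA means of Krt13 and Krt4 are set by t-205-1-3.

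The keratins of differentiated oral epithelium did not pass the test between the groups, and t-205-1-3 stood apart in them. Krt4 was at 1.59, 1383, 1.87, 0.962 and 3.77 CPM in ELA mice and 8.49, 25.5, 15.5 and 0.719 CPM in control mice. Krt13 was at 2.46, 1751, 2.49, 1.05 and 5.87 CPM in ELA mice and 25.1, 67.6, 22.2 and 0.767 CPM in control mice. In both genes t-205-1-3 was far above each other mouse, 3 control mice were above the other 4 ELA mice, and c-202-1-2 was the lowest of the 9. The library t-205-1-3 held 95.4% of all Krt4 counts and 92.4% of all Krt13 counts. The log2 fold changes of 4.47 (SE 2.51, edgeR adjusted p = 0.879) for Krt4 and 3.61 (SE 2.44, edgeR adjusted p = 0.932) for Krt13 turned to -2.59 and -3.26 without that library (adjusted p = 0.472 and 0.420).

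Per kilobase, Krt13 was above Krt4 in each library. The ratio was 1.82, 1.48, 1.56, 1.28 and 1.82 in ELA mice and 3.46, 3.10, 1.67 and 1.25 in control mice. Neither gene shares a 50-base stretch with another gene. Other genes of the upper oral layers were high in the same library. The cornified envelope protein Sprr3 was at 46.2 CPM in t-205-1-3 against 5.49 CPM or less in the other 8 mice. Krtdap was at 34.5 CPM against 8.29 CPM or less, and Sbsn at 29.4 CPM against 10.3 CPM or less. Of the keratin partner list given further below, the transglutaminase Tgm3 was at 46.0 CPM against 1.81 CPM or less. Others of that list were not set apart in t-205-1-3. Tgm1 was at 12.6 CPM against up to 11.8 CPM, Dmkn at 158 CPM against up to 150 CPM and Ivl at 0.109 CPM against up to 0.312 CPM. The 8 oral mucosa markers (Krt4, Krt13, Krt76, Krtdap, Sbsn, Lor, Sprr3 and Crct1) summed to 19.9 to 3343 CPM in ELA mice and 34.0 to 143 CPM in control mice, with Crct1 at 0 in 3 ELA mice and Sprr3 at 0 in t-205-1-1. In all, 58 genes of t-205-1-3 were at least 5 times as high as in any other library, 0.37% of the 15681 genes with 10 or more counts there, and 4 of its 28 keratins with such counts were among them (Krt4, Krt13, Krt23 and Krt78). Krt76, a type II keratin of palate and gingiva, was at 13.5, 77.3, 21.5, 25.1 and 22.9 CPM in ELA mice and 36.2, 23.7, 26.6 and 24.6 CPM in control mice. Krt24 was at 30.6, 60.9, 28.8, 10.5 and 22.0 CPM in ELA mice and 30.0, 45.9, 55.7 and 32.9 CPM in control mice. Both overlapped between the groups and were highest in t-205-1-3. Krt78 was at 0, 5.53, 0.104, 0 and 0.278 CPM in ELA mice and 0.369, 0.482, 0.400 and 0.192 CPM in control mice, so t-205-1-3 alone was high. The summed group was 48.1, 3277, 54.8, 37.5 and 54.8 CPM in ELA mice and 100.2, 163, 120.4 and 59.2 CPM in control mice. Without t-205-1-3, each remaining ELA mouse was below each control mouse, a difference that was seen after that library was set aside and has no test.

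Krt10, a type I keratin, led the epidermal suprabasal group. It was at 33.4, 67.1, 31.4, 14.1 and 26.3 CPM in ELA mice and 57.8, 62.0, 108 and 58.1 CPM in control mice. All ELA mice except t-205-1-3 lay below the controls. The log2 fold change was -1.05 (SE 0.376) with an unadjusted p of 0.0176, and it did not pass after adjustment (edgeR adjusted p = 0.615). Without t-205-1-3 it was -1.44 (adjusted p = 0.122). Krt1, the type II partner of Krt10 in epidermis, was at 0.109, 2.35, 0.312, 0.0437 and 0.772 CPM in ELA mice and 2.32, 0.963, 4.95 and 0.431 CPM in control mice. Per kilobase, Krt10 averaged 16.3 FPKM in ELA and 33.8 FPKM in control, and Krt1 averaged 0.163 FPKM in ELA and 0.491 FPKM in control. Krt9 and Krt77, known from footpad and sweat duct epidermis, were at or below 0.200 CPM, and Krt79 was at or below 1.85 CPM.

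None of the 5 keratins of injury, appendages and nail (the stress group of the plots) passed the test after adjustment. Krt17, a type I keratin of epithelial appendages that is induced on injury, was at 279, 337, 479, 275 and 357 CPM in ELA mice and 167, 279, 288 and 145 CPM in control mice. The other 3 ELA mice exceeded the controls, and t-205-1-1 and t-203-1-4 lay within the control range. Its log2 fold change of 0.65 (SE 0.241) had an unadjusted p of 0.0195 and did not pass after adjustment (edgeR adjusted p = 0.632). Krt6a, a type II partner of Krt16 and Krt17, was at 261, 368, 88.0, 77.8 and 128 CPM in ELA mice and 456, 297, 414 and 146 CPM in control mice. The 3 ELA mice of t-203 were below the control range, and those of t-205 were within it. Krt6b was at 25.7, 58.0, 5.35, 4.94 and 11.5 CPM in ELA mice and 65.0, 38.9, 35.4 and 8.20 CPM in control mice, and Krt16 was at 3.88, 43.6, 4.57, 0.656 and 4.02 CPM in ELA mice and 30.0, 18.6, 32.2 and 3.12 CPM in control mice. The fold changes of Krt6a, Krt6b and Krt16 were -0.83, -0.81 and -0.90, none of them past the test (edgeR adjusted p = 0.886, 0.984 and 0.999). Krt6a and Krt6b share 57.2% and 50.1% of their 50-base stretches with other genes, mostly with each other, and Krt16 shares 37.6%, so their separate values are uncertain. Krt42, a type I keratin of the nail unit, was at 29.7, 18.9, 46.4, 18.8 and 35.6 CPM in ELA mice and 13.7, 46.8, 57.6 and 41.1 CPM in control mice, with overlap. The summed group was 592 ± 162 CPM in ELA mice and 645 ± 211 CPM in control mice (SD, n = 5 and 4).

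Per kilobase, Krt75 averaged 17.2 FPKM over the 9 mice and each other hair follicle keratin 1.20 FPKM or less. The summed hair root sheath group was 53.1 to 63.9 CPM in ELA mice and 57.9 to 77.3 CPM in control mice. Most of it was Krt75 in each mouse, so this sum says little about the other root sheath keratins. Krt75, a type II keratin known from the follicle companion layer, was at 49.8, 56.0, 54.9, 52.3 and 38.3 CPM in ELA mice and 57.5, 54.6, 73.1 and 69.3 CPM in control mice. It was lowest in t-203-1-5, the library where most other hair keratins were highest, and the groups overlapped at c-204-1-2. Its log2 fold change was -0.34 (SE 0.142) with an unadjusted p of 0.0336 and an edgeR adjusted p of 0.701, so it did not pass. Of the inner root sheath keratins, Krt71 (type II) was at 1.97, 1.75, 2.65, 2.67 and 8.31 CPM in ELA mice and 1.95, 1.30, 1.70 and 1.39 CPM in control mice. Its log2 fold change of 1.14 (SE 0.463, edgeR adjusted p = 0.684) fell to 0.51 without t-203-1-5. Krt73 (type II) was at 0.438, 1.86, 2.34, 1.92 and 3.21 CPM in ELA mice and 0.316, 0.193, 0.600 and 1.05 CPM in control mice. All ELA mice except t-205-1-1 were above the controls, with a log2 fold change of 1.85 (SE 0.594, edgeR adjusted p = 0.513), which was 1.59 without t-203-1-5. Krt27 (type I) was at 0.875, 0.876, 0.727, 0.262 and 5.22 CPM in ELA mice and 0.949, 1.59, 1.70 and 0.671 CPM in control mice, and Krt25 (type I) was at 0, 0, 0.156, 0.219 and 4.70 CPM in ELA mice and 0, 0.0482, 0 and 0 CPM in control mice. Both stood out in t-203-1-5 and in no other mouse.

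The summed hair shaft keratins were also highest in t-203-1-5. The sum was 0.383, 2.03, 1.40, 0.306 and 8.46 CPM in ELA mice and 1.90, 2.50, 3.50 and 0.336 CPM in control mice. Krt84, described below, gave 0.949, 2.07, 2.40 and 0.240 CPM of the control sums and 0.556 CPM of the sum in t-203-1-5. The library t-203-1-5 was the highest for 21 of the 50 keratins with a count, and 18 of its hair keratins had 10 or more counts against 3 to 5 in the other libraries. It was the deepest library, so low genes reach a count minimum there more easily. At least 5 times as high as in any other library were 21 genes of t-203-1-5, 0.124% of the 16880 genes with 10 or more counts there, and 9 of its 43 keratins with such counts were among them: Krt12, Krt25, Krt28, Krt72, Krt31, Krt33a, Krt35, Krt81 and Krt83. In that library the root sheath keratins Krt28 and Krt72 were at 2.04 and 1.73 CPM, and Krt35 was at 2.47 CPM, and Krt31, Krt33a, Krt81 and Krt83 were at 0.556 to 0.834 CPM. The remaining follicle keratins (Krt26, Krt32, Krt33b, Krt34, Krt36, Krt39, Krt82, Krt86 and Krt87) stayed at or below 0.865 CPM in each of the 9 mice. The hair keratin-associated protein genes Krtap7-1 (1.36 CPM), Krtap8-1 (1.11 CPM) and Krtap11-1 (0.834 CPM) were among the same 21 genes. Krt12, the type I keratin of the corneal epithelium, was at 3.80 CPM in t-203-1-5 and at 0.250 CPM or less elsewhere, but 42.0% of its 50-base stretches are shared with the gene A830036E02Rik on the other strand. Of the shaft keratins, Krt86, Krt81, Krt87, Krt34, Krt31, Krt33b, Krt83 and Krt33a share 17.8% (Krt33a) to 43.3% (Krt86) of their stretches with other genes, so their separate values are uncertain. The only shaft-group keratin in the test was Krt84, a hard keratin of nail and tongue. It was at 0.328, 0.766, 0.416, 0.0437 and 0.556 CPM in ELA mice and 0.949, 2.07, 2.40 and 0.240 CPM in control mice, with a log2 fold change of -1.73 (SE 0.691, edgeR adjusted p = 0.676). It was highest in c-202-1-1, and c-202-1-2 lay among the ELA mice.

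**Figure D5:**
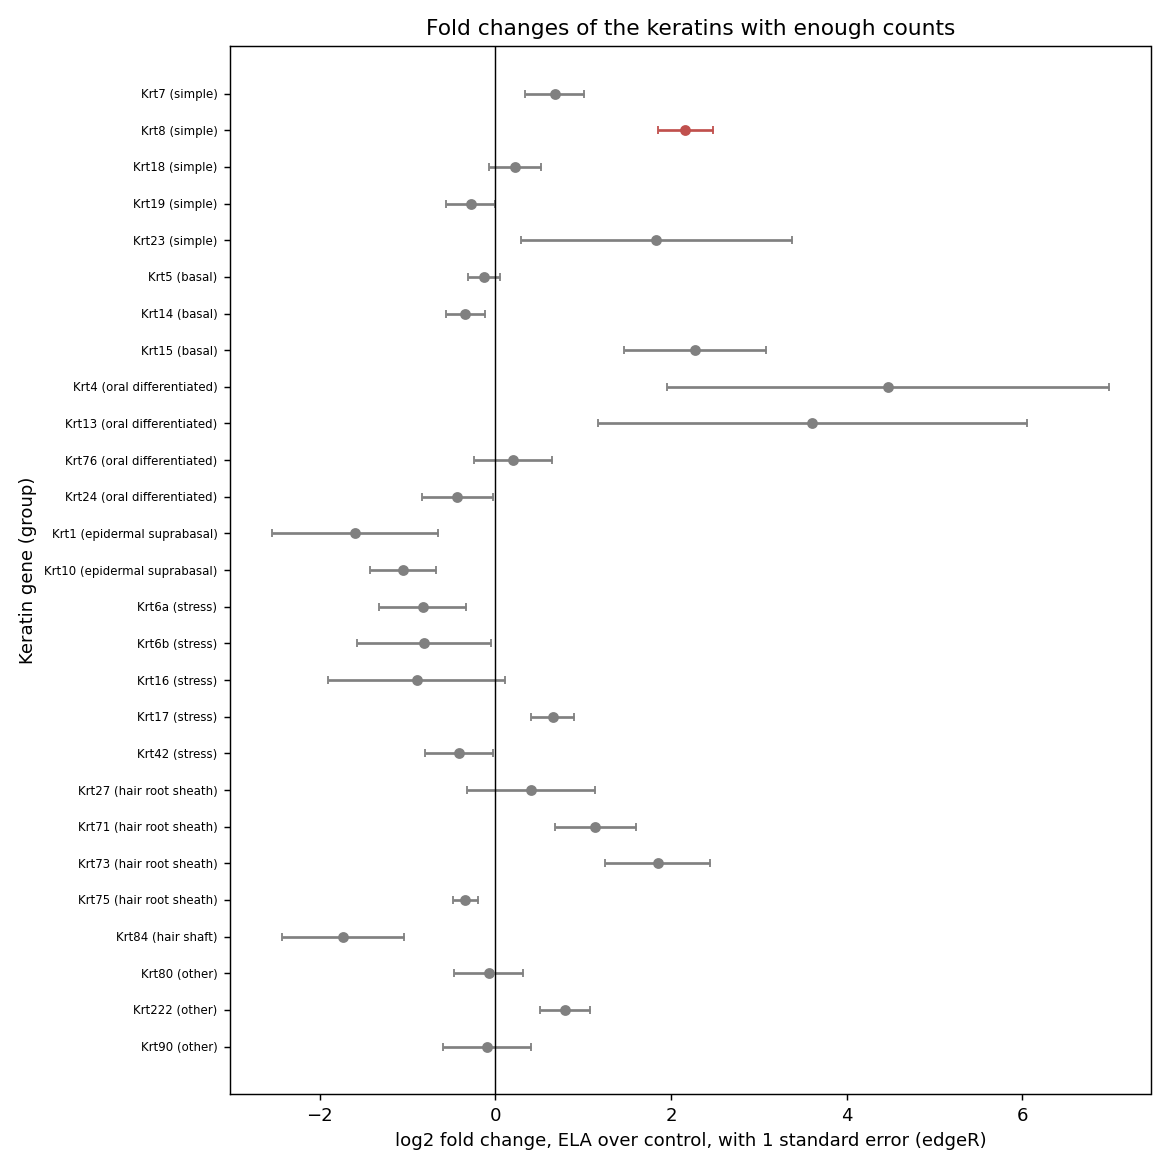
Log2 fold change of ELA over control from edgeR for the 27 keratins tested, with 1 standard error on each side, ordered by keratin group. Krt8 (2.16, in red) is the one that passed at an adjusted p below 0.05, and the widest errors are those of Krt4 and Krt13 (SE 2.51 and 2.44).

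Outside these groups, Krt222, a keratin-like type I gene, was at 5.91, 4.71, 9.04, 10.1 and 6.05 CPM in ELA mice and 2.58, 4.38, 4.50 and 5.03 CPM in control mice. All ELA mice except t-205-1-3 were above the controls, with a log2 fold change of 0.80 (SE 0.282, unadjusted p = 0.0157, edgeR adjusted p = 0.601). Krt80, a widely expressed type II keratin, was at 7.001, 19.7, 7.9996, 4.64 and 5.41 CPM in ELA mice and 7.59, 10.9, 11.8 and 7.29 CPM in control mice. Krt90 was at 1.04, 0.712, 0.416, 1.14 and 1.39 CPM in ELA mice and 2.06, 0.434, 0.750 and 0.815 CPM in control mice. Both overlapped between the groups.

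Genes that work with keratin filaments were read from the same edgeR fit. The list held 42 genes of desmosomes, hemidesmosomes, plakins, other intermediate filaments, cornified envelopes and epithelial transcription factors, and 38 were tested. Of these, 25 had a positive (background 52.6%) and 13 a negative log2 fold change, with a median of 0.08 against 0.01 over all genes, and 0 passed at an adjusted p below 0.05 in either direction in edgeR, DESeq2 or limma-voom. At an unadjusted p below 0.05, 2 of the 38 were higher (background 3.56%) and 1 was lower (background 2.89%), shares close to those over all genes, and the values of these 3 are given as a description. Lmnb1, which encodes lamin B1 of the nuclear lamina, was at 43.0 ± 14.4 CPM in ELA mice and 28.7 ± 4.55 CPM in control mice, which gave a log2 fold change of 0.58. Evpl, which encodes envoplakin, was at 112 ± 24.8 CPM in ELA mice and 82.2 ± 16.8 CPM in control mice, which gave a log2 fold change of 0.44. Vim, which encodes the mesenchymal filament vimentin, was at 495 ± 61.2 CPM in ELA mice and 614 ± 59.6 CPM in control mice (SD, n = 5 and 4), which gave a log2 fold change of -0.31. Desmoplakin (Dsp), which anchors keratin filaments at desmosomes, was at 834 ± 310 CPM in ELA mice and 909 ± 241 CPM in control mice, and plectin (Plec), which links them to hemidesmosomes, at 294 ± 94.2 CPM in ELA mice and 320.3 ± 84.5 CPM in control mice. Both differed by less than their SD.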

How the data were processed

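RNA-seq of enamel organs from 5 ELA and 4 control mice was analysed from the deposited table, which holds raw counts for each Ensembl gene. The authors had the libraries sequenced and counted by a company, and CASAVA, HISAT and HISAT2 appear, with no version, in the submitters' processing notes. Which program counted reads, whether strand was used, and which genome build, is not given in the sources used here, so a gene and an overlapping gene on the other strand cannot be told apart. All 9 columns were matched to mice by title, and 0 were left over. In edgeR 4.0.16 (R 4.3.3), genes passing filterByExpr (count minimum 10) were scaled by TMM and tested by the robust quasi-likelihood method, with p-values adjusted by Benjamini-Hochberg over the 15909 genes tested. DESeq2 1.42.0, the tool of the study's methods, and limma-voom 3.58.1 were alternatives. CPM used TMM-scaled totals, and FPKM divided CPM by the table's gene length in kilobases. The edgeR, DESeq2 and limma-voom fits were tested on simulated counts, with independent mice and the same dispersion for all genes. Per-mouse values are given for the 7 marker keratins, for keratins with an unadjusted p below 0.05 and for those with a mean of at least 1 CPM in either group (29 in all). The members, groups and lists were chosen with earlier results of these data known. The depth of each library is its total count, and it limits the precision of keratins with few counts.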

Additional observations from a re-analysis of the deposited data

Results flagged for a closer look

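Within each group, the highest and lowest mouse of each keratin with 10 or more counts in a library was set against the others by Dixon's criterion on log2 CPM. Of 72 groups checked, 13 held a mouse far from the rest. The usual chance rate of about 1 in 20 is no yardstick for this count. Several groups met the count minimum only through the mouse that stood apart, such as Krt31 in ELA mice (27 counts in t-203-1-5, 0 in the others). Keratins that are high in the same library may also not be independent checks. In ELA mice, t-205-1-3 was the highest for Krt4 (1383 CPM, others 0.962 to 3.77 CPM) and Krt13 (1751 CPM, others 1.05 to 5.87 CPM). The library t-203-1-5 was the highest ELA mouse for 9 keratins, 8 of them of hair: Krt12 at 3.80 CPM, Krt71 at 8.31 CPM, Krt72 at 1.73 CPM, Krt31 at 0.834 CPM, Krt33a at 0.556 CPM, Krt34 at 0.340 CPM, Krt81 at 0.556 CPM, Krt83 at 0.772 CPM and Krt86 at 0.340 CPM. For these 9, the other 4 ELA mice were at 2.67 CPM or less for Krt71 and at 0.219 CPM or less for the rest. For Krt73 the lowest ELA mouse stood apart, t-205-1-1 at 0.438 CPM with the others at 1.86 to 3.21 CPM. In control mice, Krt10 was highest in c-202-1-1 at 108 CPM, with the other 3 mice at 57.8 to 62.0 CPM.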

How the results depend on the processing

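No paired analysis was possible because the replicate numbers only name the mice within a group and the title openings do not occur in both groups. The count of 1 keratin higher in ELA (Krt8) became 0 under plain library totals (log2 fold change 2.10, adjusted p = 0.0510), with counts summed by title opening (2.18, 0.188), without the t-203 mice (2.13, 0.247), the c-204 mice (2.70, 0.692) or the c-202 mice (1.76, 0.411), and without t-205-1-3 and t-203-1-5 (2.08, 0.0654), an alternative chosen after seeing the data. It was 0 to 1 when single mice were left out. These fits have fewer mice, other scaling for plain totals, or, for counts summed by title opening, all mice in fewer columns. The cause was not tested further. The counts of keratins lower in ELA and of partner genes in either direction were 0 under all alternatives run. The Krt8 to Krt18 difference was 1.70 to 2.11 without single mice and 1.602 without the t-203 mice (exact permutation p = 0.0667, the smallest that this split allows). The oral differentiated sum, as the log2 ratio of the group means, was 2.65, and -1.18 to 2.96 without single mice, with -1.18 without t-205-1-3. Without t-205-1-3 and t-203-1-5 it was -1.24, and the hair shaft sum was -1.56 against 0.29 with all mice.

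Of 540 fold changes of the 27 tested keratins under alternatives, 39 changed sign, 0 of them past the threshold, and 14 keratins never changed sign. In limma-voom the reversed values were -0.55 for Krt23, -0.18 for Krt4, -0.62 for Krt13, -0.059 for Krt76, -0.10 for Krt27 and 0.087 for Krt90. Summed by title opening, Krt80 was at 0.0076. Without the t-205 mice, Krt18 was at -0.0014, Krt23 at -1.95, Krt4 at -2.48, Krt13 at -3.16 and Krt76 at -0.26. Without the t-203 mice, Krt5 was at 0.084, Krt24 at 0.16, Krt6b at 0.18, Krt16 at 0.18, Krt27 at -0.48 and Krt80 at 0.51. Without the c-204 mice, Krt19 was at 0.021 and Krt90 at 0.27, and without the c-202 mice, Krt18 was at -0.093. Without t-205-1-3 and t-203-1-5, Krt23 was at -2.22, Krt4 at -3.09, Krt13 at -3.85, Krt76 at -0.47 and Krt27 at -0.99. Leaving out single mice gave -0.40 to 0.029 for Krt19, -1.86 to 2.22 for Krt23, -2.59 to 5.08 for Krt4, -3.26 to 4.46 for Krt13, -0.42 to 0.40 for Krt76, -0.84 to 0.69 for Krt27, -0.59 to 0.088 for Krt80 and -0.35 to 0.50 for Krt90. Depth limits the hair shaft keratins, most of which had under 10 counts in most libraries.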
